A study of Caenorhabditis elegans with 9 samples.

Results

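The lgc genes of Caenorhabditis elegans encode subunits of ligand-gated ion channels. Every gene whose symbol is lgc- followed by a number was taken from 2 deposited tables of genes, 1 of wild type VA motor neurons against whole worms and 1 of unc-4 against wild type VA motor neurons. This gave 18 genes of the 2550 in either table. Of these 17 stood in the whole-worm table, which holds 2349 genes, and 2 in the unc-4 table, which holds 214. lgc-28 stood in both tables and lgc-23 only in the unc-4 table.

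Libraries were labelled as 3 of VA neurons from unc-4 larvae, 3 of VA neurons from wild type larvae and 3 of whole worms of the N2 strain, all synchronised at the second larval stage (L2). Libraries are numbered by their replicate number, 1 to 3 for the sorted cells and 2 to 4 for whole worms. The labels give the sorted wild type and unc-4 groups the same 2 transgenes, pUnc-4::mCherry and pUnc-4C::GFP, and name no unc-4 allele. Cells with red but no green fluorescence were collected by sorting, a gate that takes AVF neurons as well as VA, while whole worms were frozen over liquid nitrogen without sorting. VA neurons and whole worms therefore differ in transgenes and handling as well as in cell content, and these cannot be told apart. Whether replicates were grown as separate cultures is not stated, so p-values measure the spread between these libraries, which may be technical.

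The lgc proteins belong to the Cys-loop superfamily, in which several subunits surround a pore that opens when a neurotransmitter binds outside the cell. The same superfamily holds the nicotinic acetylcholine receptors, the GABA receptors and the glutamate-gated chloride channels of the worm. Its members pass either cations, which excite the cell, or anions, which usually inhibit it. VA motor neurons of the ventral cord release acetylcholine onto ventral body wall muscle and serve backward movement. UNC-4 is a homeodomain repressor that acts in these neurons.

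Levels are the authors' TPM values (transcripts scaled to a fixed total in each library and corrected for length). TPM keeps no sequencing depth, so the depth behind each value is unknown and no counting interval is given. Every gene in the tables has a fold above 1 in favour of the group named first, 2.25 at the least in the whole-worm table and 3.69 in the unc-4 table, and a false discovery rate (FDR) of at most 0.05, so 100% of each table counts as called by the authors. The presence of a gene in a table ("listed" below) is thus itself a result of the authors' test, and genes that were not listed, with their levels, are not analysed here. Genes were also compared with limma on log2(TPM + 1) within each table. Because the genes were selected on the same libraries, these p-values describe how firmly a difference stands over the libraries and are no independent evidence.

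Some libraries stood apart. In VA replicate 2 the 11 listed heat shock genes made up 32.6% of all TPM, against 5.22% and 1.90% in VA libraries 1 and 3 and at most 0.310% in whole worms, and since TPM share a fixed total less of it was left for other genes in VA replicate 2. Among the unc-4 libraries, replicate 2 had the lowest value in 178 of 214 genes of the unc-4 table. Of 8 markers of VA and cholinergic motor neurons 8 stood in the whole-worm table, with a summed level of 3430 to 4902 TPM in VA neurons and 66.6 to 78.7 TPM in whole worms. unc-4 itself, whose promoter drove the reporters of the sort, read 1311, 936 and 1129 TPM in VA libraries 1 to 3 and 14.6, 12.4 and 11.3 TPM in whole-worm libraries 2 to 4. It was not listed in the unc-4 table, so its level in unc-4 libraries is not analysed here. No marker of body wall muscle (0 of 5), coelomocytes (0 of 4), pharynx (0 of 4), intestine (0 of 4), hypodermis (0 of 4), germline (0 of 3) or glutamate neurons (0 of 1) was listed in the whole-worm table, while 1 of 5 GABA neuron markers (snf-11) and 1 of 4 ciliated neuron markers (daf-19) were. Absence from a table that holds only higher genes is no measure of purity.

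The annotation of WBcel235 (Ensembl release 115) holds 56 genes with an lgc symbol. The 18 genes described here all matched it by identifier and were spread over 5 chromosomes, with 2 of 8 annotated lgc genes on II, 4 of 6 on III, 3 of 12 on IV, 3 of 11 on V and 6 of 18 on X, and the lgc gene of chromosome I was not among them. ggr-1 and ggr-3, listed under these older symbols in the whole-worm table, are now lgc-57 and lgc-56. With them 19 of 56 annotated lgc genes (33.9%) were listed in the whole-worm table, where 11.6% of all annotated protein-coding genes were. In the unc-4 table, lgc-28 and lgc-23 were 2 of 56 (3.57%), where 1.07% of protein-coding genes were. The longest annotated proteins of the 18 genes had 397 to 675 residues with a median of 499.5, and those of the other 38 lgc genes had 366 to 1046 residues with a median of 436. Of the 18 genes, 8 overlap a protein-coding gene on the opposite strand, 5 of them in exons, where 0.116% to 2.48% of the exon bases of the lgc gene were shared. Of the overlapping genes 0 were listed. The sources used here do not say whether reads were counted by strand, so reads from such a pair may not be told apart.

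The first comparison asks which lgc channels are enriched in wild type VA neurons over whole L2 worms. Among the 17 genes the highest levels belonged to lgc-36, lgc-38, lgc-31 and lgc-35. They averaged 160 to 368 TPM in VA neurons and 2.08 to 24.4 TPM in whole worms. Ratios of mean TPM over the 17 genes ran from 2.23 for lgc-25 to 77.2 for lgc-35. Their median was 16.9, where the median of all listed genes was 5.18. The median of the mean levels in VA neurons was 36.2 TPM, against 32.7 TPM for all listed genes. In whole worms it was 2.14 TPM, against 6.95 TPM for all listed genes. In 11 of 17 genes (64.7%) the ratio was at least 10, which 688 of 2349 listed genes (29.3%) also reached. Summed over the 17 genes, the level was 1994, 1307 and 1426 TPM in VA libraries 1, 2 and 3, and 108, 116 and 89.1 TPM in whole-worm libraries 2, 3 and 4.

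The lowest VA library exceeded the highest whole-worm library in 15 of 17 genes (88.2%), as it did in 91.9% of the genes of that table. At an adjusted p under 0.05 limma's test passed 15 of 17 genes, where it passed 95.1% of the 2328 genes fitted. All 17 genes passed the minimum of 1 TPM and were fitted. lgc-28 and lgc-25 were the exceptions on each count. Both shares lay near those of the whole table, and the differences were not tested. In the authors' deposited table the folds of the 17 genes lay between 3.15 and 98.0 with a median of 22.2, and the FDR was listed as 0 in 8 of them and reached 0.0456 at most in the other 9.

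**Figure D1:**
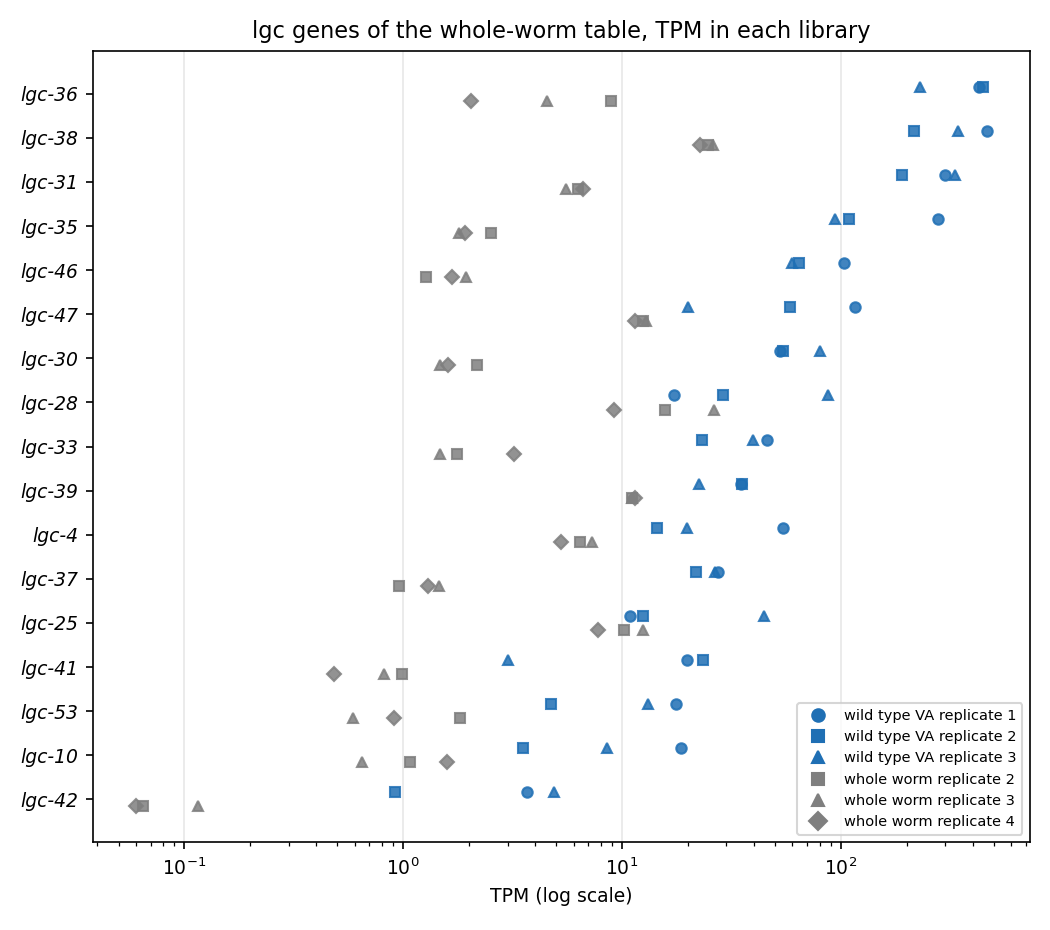
TPM of the 17 lgc genes of the whole-worm table on a log axis, with 1 point per library (blue, wild type VA libraries 1 to 3, above grey, whole-worm libraries 2 to 4) and genes ordered by their mean in VA neurons. Points of the groups are apart in 15 genes, widely in lgc-35 (ratio of means 77.2) and narrowly in lgc-47, and they overlap in lgc-28 and lgc-25, where VA replicate 3 alone lies far to the right.

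All genes of the whole-worm table were selected as higher in VA neurons. Of the lgc genes that group with GABA receptors by sequence, it held lgc-35, lgc-36, lgc-37 and lgc-38, with ratios from 14 to 77.2. They made up 56.8% of the summed mean level of the 17 genes in VA neurons. lgc-35 (WBGene00012915, II:12836480-12840157, minus strand) encodes a GABA-gated cation channel that responds to GABA spilling over onto cholinergic motor neurons. It read 278, 109 and 93.8 TPM in VA libraries 1, 2 and 3, against 2.52, 1.79 and 1.91 TPM in whole-worm libraries 2, 3 and 4. The lowest VA library was 37.2 times the highest whole-worm library, and VA replicate 1 stood well above the other VA libraries. Its log2 difference was 5.54 ± 0.42 (SE, adjusted p = 8.2e-07 by limma), and its ratio of 77.2 became 48.8 without VA replicate 1.

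lgc-36 (WBGene00008551, V:11256521-11258996, minus strand) read 429, 445 and 230 TPM in VA libraries 1 to 3, against 8.92, 4.52 and 2.05 TPM in whole-worm libraries 2 to 4. It had the highest mean of the 17 genes in VA neurons and unequal whole-worm values. Its ratio of 71.3 became 112 without whole-worm replicate 2, and the log2 difference was 6.01 ± 0.45 (SE, adjusted p = 7.8e-07 by limma). lgc-38 (WBGene00017389, III:7009136-7019584, plus strand) read 466, 216 and 343 TPM in VA libraries 1 to 3, against 24.6, 25.9 and 22.6 TPM in whole-worm libraries 2 to 4, with the highest whole-worm mean among these 17 genes (24.4 TPM). The ratio was 14, with a log2 difference of 3.69 ± 0.35 (SE, adjusted p = 4.1e-06 by limma). lgc-37 (WBGene00013914, III:12785154-12793176, plus strand) was lower in level and the steadiest of the 17 genes over the VA libraries, with a coefficient of variation of 12.1%. It read 27.4, 21.8 and 26.7 TPM in VA libraries 1 to 3 against 0.960, 1.45 and 1.30 TPM in whole-worm libraries 2 to 4, a ratio of 20.5 and a log2 difference of 3.55 ± 0.33 (SE, adjusted p = 3.2e-06 by limma).

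Other GABA and amine gated channel genes of the list were listed in 4 of 6 matched cases, where 11.6% of all protein-coding genes were. All 4 were separated between the groups, as were 91.9% of the genes of the table. The GABA receptor subunit gene gab-1 had a ratio of 59.1, and exp-1, which encodes an excitatory GABA-gated cation channel, a ratio of 12.8. Ratios were 10.9 for ggr-1 (now lgc-57) and 7.72 for ggr-3 (now lgc-56). ggr-1 read 188, 59.0 and 92.4 TPM in VA libraries 1 to 3 against 13.9, 10.4 and 6.79 TPM in whole-worm libraries 2 to 4, which places it between lgc-35 and lgc-46 in mean level.

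Channels gated by acetylcholine came next. lgc-46 (WBGene00022106, III:1125230-1136025, minus strand) encodes an acetylcholine-gated chloride channel found at the terminals of cholinergic motor neurons. It read 103, 64.2 and 59.5 TPM in VA libraries 1 to 3, against 1.27, 1.93 and 1.67 TPM in whole-worm libraries 2 to 4. The groups lay far apart, with a ratio of 46.7 and a log2 difference of 4.84 ± 0.34 (SE, adjusted p = 6.1e-07 by limma). lgc-47 (WBGene00009799, X:9801081-9807662, minus strand), a member of the same group of channels by sequence, read 116, 58.6 and 20.1 TPM in VA libraries 1 to 3 against 12.5, 12.8 and 11.4 TPM in whole-worm libraries 2 to 4. Its VA libraries spread over 5.79 times, and the lowest was only 1.56 times the highest whole-worm library. The log2 difference was 1.998 ± 0.516 (SE, adjusted p = 0.0038 by limma), and the ratio of 5.31 became 3.21 without VA replicate 1. lgc-39 (WBGene00017314, V:7175501-7178795, plus strand) encodes an anion channel that opens to acetylcholine and to amines. It showed a small and even difference, with 34.9, 35.4 and 22.5 TPM in VA libraries 1 to 3 against 11.1, 11.1 and 11.5 TPM in whole-worm libraries 2 to 4, a ratio of 2.76 and a log2 difference of 1.36 ± 0.32 (SE, adjusted p = 0.0023 by limma).

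lgc-53 and lgc-41, for channels gated by an amine and by betaine, averaged only 11.9 and 15.4 TPM in VA neurons. lgc-39, whose channel also opens to amines, averaged 30.9 TPM there. lgc-53 (WBGene00020657, X:16711681-16720670, plus strand), which encodes a dopamine-gated anion channel, read 17.6, 4.75 and 13.2 TPM in VA libraries 1 to 3 against 1.82, 0.592 and 0.907 TPM in whole-worm libraries 2 to 4. VA replicate 2 was the lowest VA library. The ratio was 10.7 and the log2 difference 2.49 ± 0.47 (SE, adjusted p = 5.7e-04 by limma). lgc-41 (WBGene00008022, X:10454260-10460506, plus strand), which encodes a betaine-gated channel, read 19.8, 23.4 and 3 TPM in VA libraries 1 to 3 against 0.985, 0.814 and 0.484 TPM in whole-worm libraries 2 to 4. Here VA replicate 3 was the low library, 7.80 times under the highest, and the groups still did not overlap. The ratio was 20.3 and the log2 difference 2.86 ± 0.60 (SE, adjusted p = 0.0011 by limma).

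The remaining 8 genes of the whole-worm table have no ligand named here. Among them lgc-31 (WBGene00008997, V:15512765-15522020, minus strand) and lgc-30 (WBGene00019069, IV:924882-939736, plus strand) were far above whole worms. lgc-31 read 298, 191 and 331 TPM in VA libraries 1 to 3 against 6.26, 5.53 and 6.66 TPM in whole-worm libraries 2 to 4, a ratio of 44.5. lgc-30 read 52.7, 54.3 and 79.9 TPM in VA libraries 1 to 3 against 2.18, 1.48 and 1.60 TPM in whole-worm libraries 2 to 4, a ratio of 35.5. In each of these genes VA replicate 3 was the highest VA library. Their log2 differences were 5.23 ± 0.33 (SE, adjusted p = 4.3e-07 by limma) and 4.50 ± 0.33 (SE, adjusted p = 7.6e-07 by limma).

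lgc-33, lgc-4, lgc-10 and lgc-42 were also separated between the groups, at lower levels. lgc-33 (WBGene00021941, IV:845498-848872, plus strand) read 45.9, 23.1 and 39.5 TPM in VA libraries 1 to 3 against 1.76, 1.47 and 3.21 TPM in whole-worm libraries 2 to 4, with a ratio of 16.9 and an adjusted p = 9.3e-06 by limma. lgc-4 (WBGene00017580, X:9235103-9242223, minus strand) read 54.1, 14.5 and 19.8 TPM in VA libraries 1 to 3 against 6.39, 7.29 and 5.27 TPM in whole-worm libraries 2 to 4. VA replicate 1 carried much of that difference, and the ratio of 4.67 became 2.71 without it (adjusted p = 0.0028 by limma with all libraries). lgc-10 (WBGene00022247, IV:6446542-6457572, minus strand) behaved alike, with 18.5, 3.53 and 8.52 TPM in VA libraries 1 to 3 against 1.07, 0.651 and 1.58 TPM in whole-worm libraries 2 to 4, and its ratio of 9.26 became 5.47 without VA replicate 1 (adjusted p = 0.0020 by limma with all libraries). lgc-42 (WBGene00021437, III:1997869-2002438, plus strand) was the lowest of the 17 genes. It read 3.69, 0.919 and 4.91 TPM in VA libraries 1 to 3 against 0.0650, 0.115 and 0.0598 TPM in whole-worm libraries 2 to 4. Its ratio of 39.7 rests on whole-worm values near 0, and its log2 difference was 1.80 ± 0.48 (SE, adjusted p = 0.0045 by limma) on the scale with 1 TPM added.

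lgc-28 and lgc-25 stood apart from the other 15 genes in that the groups overlapped. lgc-28 (WBGene00044301, II:2625092-2627109, plus strand) read 17.3, 29 and 87.2 TPM in VA libraries 1 to 3 against 15.7, 26.4 and 9.20 TPM in whole-worm libraries 2 to 4. Only VA replicate 3 lay clearly above whole worms, and the ratio of 2.60 became 1.35 without it. lgc-25 (WBGene00010994, X:14158785-14161734, minus strand) read 10.9, 12.4 and 44.4 TPM in VA libraries 1 to 3 against 10.2, 12.4 and 7.77 TPM in whole-worm libraries 2 to 4. It had the same order of VA libraries, and its ratio of 2.23 became 1.15 without VA replicate 3. Log2 differences were 1.12 ± 0.55 for lgc-28 (SE, adjusted p = 0.066 by limma) and 0.82 ± 0.48 for lgc-25 (SE, adjusted p = 0.12 by limma), whereas the authors' deposited table gives FDR values of 0.0195 and 0.0456. With TPM rescaled after the heat shock genes were left out, lgc-28 passed limma's test (adjusted p = 0.045, and 0.016 to 0.30 over its alternatives) and lgc-25 did not (0.058, and 0.058 to 0.52 over its alternatives).

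**Figure D2:**
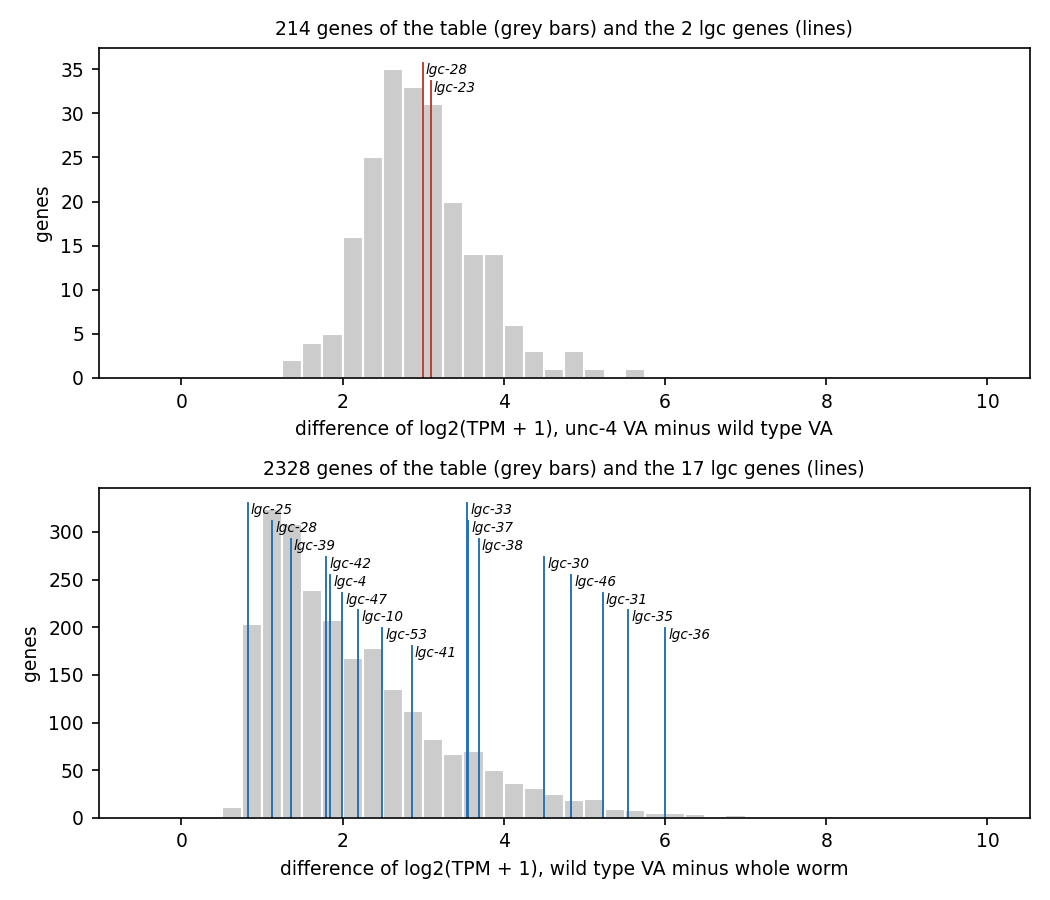
Number of genes (vertical axis) by difference of log2(TPM + 1) for the unc-4 table (upper panel, 214 genes, unc-4 VA minus wild type VA) and the whole-worm table (lower panel, 2328 genes, wild type VA minus whole worm), in grey, with a line for each lgc gene whose height carries no value. lgc-28 and lgc-23 lie near the middle of the upper distribution (2.99 and 3.09, median of all genes 2.90), while the lines of the lower panel spread from 0.82 for lgc-25 to 6.01 for lgc-36 (median of the lgc genes 2.86, of all genes 1.83).

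Single libraries weighed differently on the 17 genes. VA replicate 1 was the highest VA library in 9 of them (52.9%) and in 62.9% of all listed genes. VA replicate 3 was the highest in 5 (29.4%), against 18.5% of all listed genes. With 1 library left out the ratio of means moved by over 1.5 times in 7 genes (lgc-36, lgc-35, lgc-47, lgc-28, lgc-4, lgc-25 and lgc-10) and stayed above 1 in all 17, the lowest being the 1.15 of lgc-25. The same count was not made over all listed genes. The median coefficient of variation over the VA libraries was 55.2% in the 17 genes and 37.4% in all listed genes. In the 5 genes lgc-46, lgc-31, lgc-30, lgc-37 and lgc-39 the ratio kept within 38.2 to 51.7, 39.8 to 51.2, 30.5 to 40.5, 18.4 to 22.4 and 2.56 to 3.13. Alone, each gene's exact two-sided permutation test of 3 against 3 libraries cannot go below p = 0.1, which the 15 separated genes reached.

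**Figure D3:**
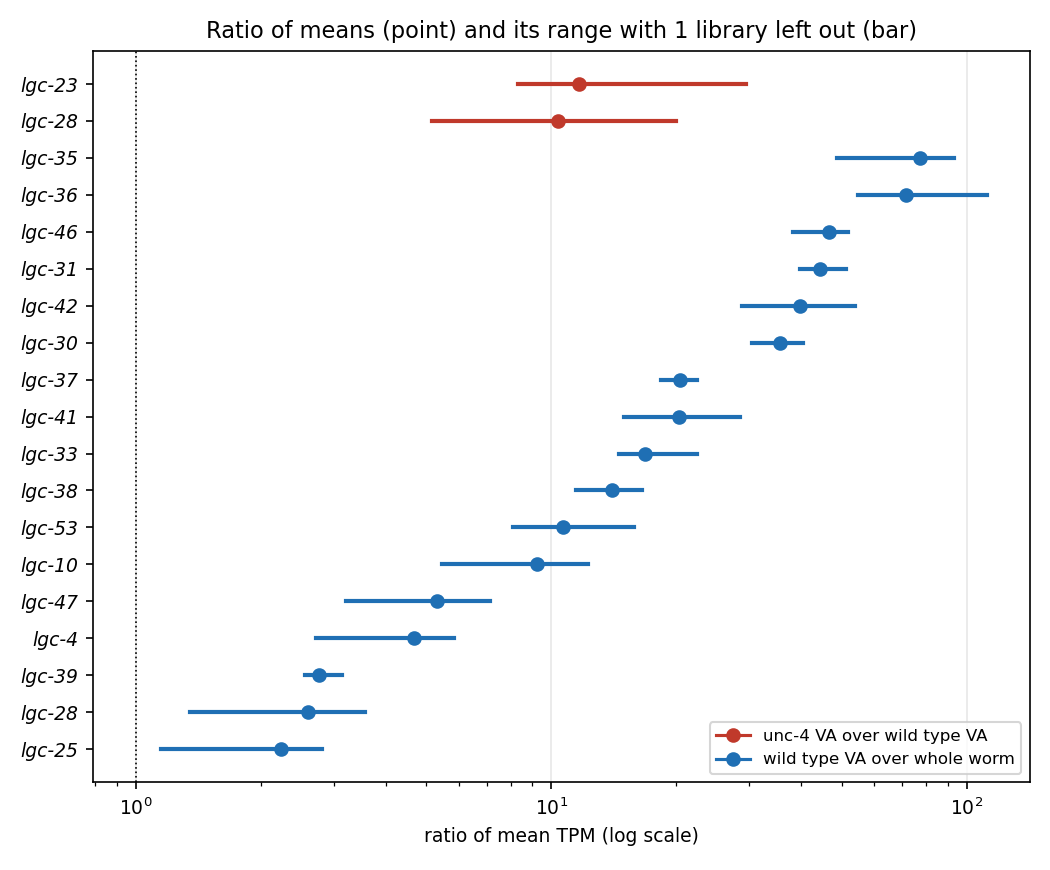
Ratio of mean TPM on a log axis for each lgc gene, as a point, with a bar from the lowest to the highest ratio when any 1 library is left out (red, unc-4 VA over wild type VA; blue, wild type VA over whole worm; dotted line, a ratio of 1). Bars are short for lgc-37 (18.4 to 22.4) and lgc-39 (2.56 to 3.13), and long for lgc-23 (8.33 to 29.5) and lgc-28 (5.17 to 20) in the unc-4 comparison.

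Genes of each table were then ranked by how alike their pattern over the 6 libraries was, measured as the root mean square difference of log2(TPM + 1) after each gene was centred on its own mean. All genes of the table were selected as higher in VA neurons, so a like pattern is in large part a like size of difference on this scale. The scale shrinks the differences of low genes, which can thus stand near genes with unlike ratios. T12B3.4, nearest to lgc-42, averaged 167 TPM in VA neurons and 49.3 TPM in whole worms, against 3.17 and 0.080 TPM for lgc-42. The 5 genes most like lgc-36 were twk-40, Y119C1B.3, twk-39, unc-3 and twk-30 (0.40 to 0.49), and those most like lgc-35 were F59D12.1, twk-40, del-1, unc-3 and R173.3 (0.18 to 0.37). The twk genes encode tandem pore potassium channels, unc-3 the transcription factor that specifies cholinergic motor neurons and del-1 a degenerin-type channel subunit. Nearest to lgc-38 were egl-3, mec-12, gnrr-4, H14E04.2 and AH9.6 (0.16 to 0.17). Nearest to lgc-37 were glb-15, hot-6, H14E04.2, jip-1 and hex-1 (0.045 to 0.21). For lgc-31 they were Y53F4B.12, gab-1, oig-5, tsp-7 and F32B4.5 (0.081 to 0.20), so that a GABA receptor subunit gene was among its nearest.

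For lgc-46 the nearest genes were twk-47, nlp-9, the netrin gene unc-6, cpd-2 and F08F3.1 (0.14 to 0.22), and for lgc-47 they were 4R79.2, rgs-4, rbc-1, the nicotinic-type receptor gene acr-21 and Y102A5C.2 (0.20 to 0.24). Those of lgc-30 were T23G4.2, hot-8, tag-68, K08C9.1 and arrd-26 (0.22 to 0.25), and those of lgc-33 dbl-1, C04A11.1, dop-3, enu-3.2 and egl-1 (0.15 to 0.19). lgc-39 was closest to ZK643.2, gei-4, flh-2, pptr-1 and ZK637.14 (0.065 to 0.091), a set with equally small differences. lgc-4 was closest to mec-7, tag-191, pmp-3, exp-2 and ZK1320.13 (0.18 to 0.23), lgc-41 to unc-41, asic-1, exp-1, Y106G6G.4 and F39E9.6 (0.22 to 0.27), and lgc-53 to F09F9.4, daf-38, C07F11.2, M03F8.6 and F57A8.4 (0.12 to 0.19). lgc-10 was closest to npr-25, sprr-1, F20D1.1, hot-7 and F09F9.4 (0.24 to 0.25), and lgc-42 to T12B3.4, T16A9.5, srb-17, frpr-1 and F37D6.3 (0.11 to 0.17). lgc-28 and lgc-25, both highest in VA replicate 3, shared 3 of their 5 nearest genes, Y108G3AL.3, K08A2.2 and ant-1.4. lgc-28 had lgc-25 and T27A3.4 besides (0.24 to 0.45) and lgc-25 had R09E10.6 and rgs-10 (0.24 to 0.32), and lgc-25 was the only lgc gene among the 85 places.

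Other families of the superfamily were listed beside the lgc genes. Of 29 matched genes for nicotinic-type receptor subunits 10 stood in the whole-worm table, led by acr-2, acr-19, acr-12 and acr-14 with ratios of 32.2, 28.9, 24.7 and 24.3. Glutamate-gated chloride channel genes were listed in 2 of 6 cases, glc-3 and avr-14, with ratios of 9.10 and 6.14. Genes of receptor assembly and clustering were listed in 8 of 16 matched cases, led by nrx-1, the clustering signal madd-4, lin-2 and frm-3 with ratios of 20.2, 20.1, 17 and 9.42. Among all annotated protein-coding genes 11.6% were listed. Together 20 genes of these 3 lists were listed and all 20 passed limma's test, where 95.1% of the genes fitted in that table did. The median ratios of the 3 lists were 10.2, 7.62 and 8.99, against 16.9 for the 17 lgc genes and 5.18 for all listed genes. The 17 genes leave out ggr-1 and ggr-3, whose ratios of 10.9 and 7.72 lay below that median. No test compared the families.

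The second comparison asks which lgc channels rose in VA neurons of unc-4 mutants over wild type. lgc-28 and lgc-23 were listed, and neither has a ligand named here. lgc-28 read 928, 65.5 and 394 TPM in unc-4 libraries 1, 2 and 3, against 17.3, 29 and 87.2 TPM in wild type libraries 1, 2 and 3. lgc-23 (WBGene00007594, X:12065208-12067433, plus strand) read 152, 8.49 and 135 TPM in unc-4 libraries 1, 2 and 3, against 1.69, 4.98 and 18.6 TPM in wild type libraries 1, 2 and 3. In both genes unc-4 libraries 1 and 3 lay above every wild type library, and unc-4 replicate 2 lay below wild type replicate 3, so that the groups overlapped. Full separation of unc-4 from wild type libraries was met by 0 of these 2 genes and by 70.1% of the 214 genes.

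The mean of lgc-28 was 463 ± 435 TPM in unc-4 and 44.5 ± 37.4 TPM in wild type VA neurons (SD, n = 3 each), a ratio of 10.4. That of lgc-23 was 98.2 ± 78.2 TPM in unc-4 and 8.43 ± 8.98 TPM in wild type VA neurons (SD, n = 3 each), a ratio of 11.7. The SD was about as large as the mean in every one of these groups. Both genes passed limma's test at an adjusted p under 0.05, as did 80.8% of the 214 genes, with log2 differences of 2.99 ± 1.08 for lgc-28 (SE, adjusted p = 0.031 by limma) and 3.09 ± 1.22 for lgc-23 (SE, adjusted p = 0.038 by limma). The authors' deposited table gives them folds of 7.87 and 9.05 at FDR values of 0.0117 and 0.0229, below the median fold of 13.3 of that table. The exact two-sided permutation test of 3 against 3 libraries gave p = 0.2 for each gene, where its smallest possible value is 0.1.

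The calls depended on which libraries were included. Without unc-4 replicate 2 the adjusted p by limma was 1.7e-04 for lgc-28 and 5.4e-05 for lgc-23. Without any 1 of the other 5 libraries both calls were lost. The adjusted p by limma was then 0.060 to 0.10 for lgc-28 and 0.066 to 0.15 for lgc-23. Over the alternatives tried, the adjusted p by limma ran from 1.7e-04 to 0.10 and from 5.4e-05 to 0.15. This dependence was not particular to these 2 genes. With all libraries limma passed 173 of the 214 listed genes. It passed 42 without unc-4 replicate 1 and 0 of 210 fitted without unc-4 replicate 3. Leaving out wild type replicates 1, 2 and 3 gave 2, 1 and 14 genes, and leaving out unc-4 replicate 2 gave 211. The ratio of lgc-28 became 5.17 without unc-4 replicate 1 and 20 without wild type replicate 3, and that of lgc-23 became 29.5 without wild type replicate 3. The homeobox gene ceh-12, a known UNC-4 target, had another order of libraries, with 40.2, 139 and 85.5 TPM in unc-4 libraries 1 to 3 against 0.620, 0.498 and 1.11 TPM in wild type libraries 1 to 3. It was highest in unc-4 replicate 2, where lgc-28 and lgc-23 were lowest.

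Over all 3 groups lgc-28 averaged 463 TPM in unc-4 VA neurons, 44.5 TPM in wild type VA neurons and 17.1 TPM in whole worms, and in that order neighbouring groups overlapped. The wild type VA libraries serve both comparisons, so these are not independent of each other. For lgc-23 no whole-worm level is at hand. It lies at the start of a row of 8 lgc genes within 62.8 kb of chromosome X (12065208 to 12128000), of which the other 7, lgc-24 and lgc-13 to lgc-18, were not listed in either table. Reads shared between such neighbouring relatives could make its value uncertain, and how alike their sequences are was not analysed here.

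Markers of coelomocytes, scavenger cells of the body cavity, moved with both genes. Of 4 coelomocyte markers, cup-4 and unc-122 stood in the unc-4 table, and lgc-26 and cup-5 were not listed. cup-4 encodes a ligand-gated channel of the same superfamily that acts in coelomocyte endocytosis. It read 1409, 140 and 567 TPM in unc-4 libraries 1 to 3 against 29.9, 43.3 and 115 TPM in wild type libraries 1 to 3. unc-122 read 422, 33.3 and 119 TPM in unc-4 libraries 1 to 3 against 8.71, 12.3 and 26.4 TPM in wild type libraries 1 to 3. The order of the libraries was that of lgc-28 in each group. The summed level of these listed markers ran from 173 to 1831 TPM in unc-4 and from 38.6 to 142 TPM in wild type VA neurons, and no listed marker was at 0.

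Within a library lgc-28 stood in a narrow ratio to cup-4, of 0.659, 0.468 and 0.695 in unc-4 libraries 1 to 3 and 0.578, 0.669 and 0.756 in wild type libraries 1 to 3. The ratio of lgc-28 to unc-122 lay between 1.97 and 3.32 in unc-4 and between 1.99 and 3.30 in wild type libraries. The groups overlapped in both ratios, while the mean level of lgc-28 itself differed 10.4-fold. For lgc-23 the ratio to cup-4 was looser, from 0.0607 to 0.237 in unc-4 and from 0.0564 to 0.162 in wild type libraries. Its ratio to unc-122 was looser as well, from 0.255 to 1.13 in unc-4 and from 0.194 to 0.706 in wild type libraries. The part of coelomocyte RNA in the level of lgc-28 and lgc-23 was not tested. In such bulk libraries more cells of a type and more RNA per cell cannot be told apart.

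**Figure D4:**
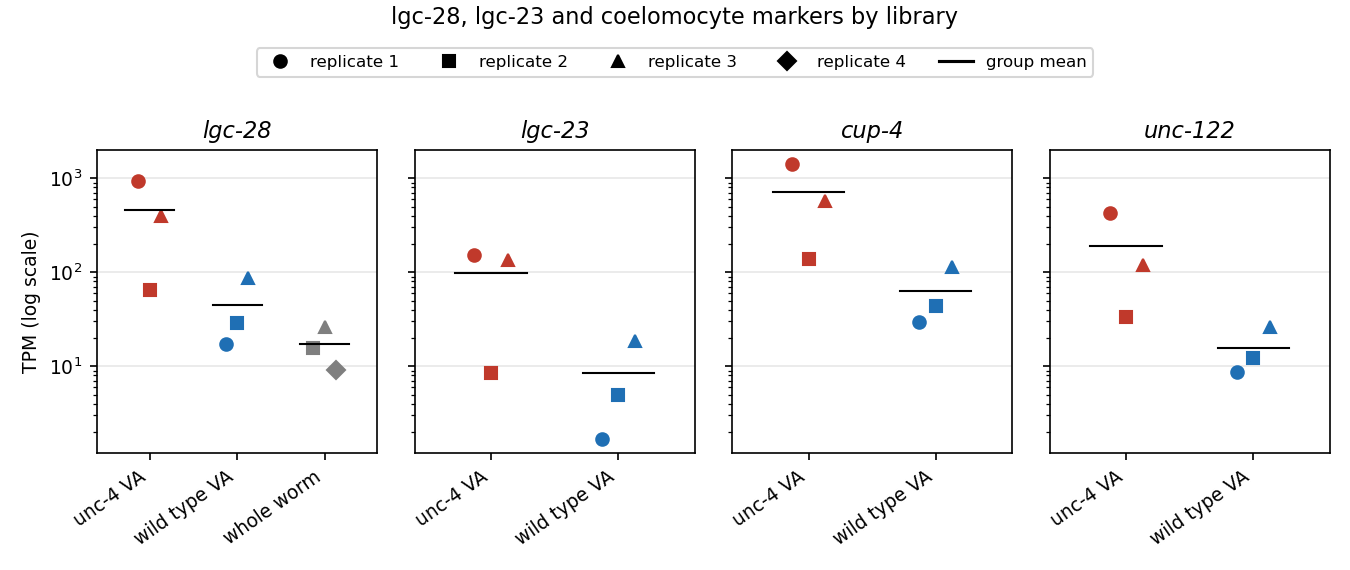
TPM on a log axis of lgc-28, lgc-23 and the coelomocyte markers cup-4 and unc-122 in each library, by group (red, unc-4 VA; blue, wild type VA; grey, whole worm, for lgc-28 only), with a line at the group mean. In all 4 genes unc-4 replicate 1 is highest and unc-4 replicate 2 lowest among unc-4 libraries, and wild type replicate 3 is the highest and wild type replicate 1 the lowest among wild type libraries.

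Genes most like lgc-28 in the unc-4 table were ZK856.5, cup-4, cof-2, ZC116.3 and unc-122 (root mean square differences of 0.16 to 0.32 over 6 libraries, median over all genes 1.14). Both listed coelomocyte markers were among these 5. Those most like lgc-23 were T19C3.5, lgc-28, ZK856.5, clec-145 and ttr-1 (0.31 to 0.51, median over all genes 1.28). Each of these genes was highest in unc-4 replicate 1 and lowest in unc-4 replicate 2 among the unc-4 libraries. They were picked for a like pattern over these libraries, so this shared order follows in large part from the choice. Of all 214 genes, 45.3% were highest in unc-4 replicate 1 and 83.2% lowest in unc-4 replicate 2.

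Other channel genes in the unc-4 table were few. Of 29 matched nicotinic-type receptor genes acr-15 and acr-16 were listed, and of the GABA and amine gated (0 of 6) and glutamate-gated (0 of 6) channel genes and those of receptor assembly (0 of 16) none was. acr-15 read 102, 55.5 and 165 TPM in unc-4 libraries 1 to 3 against 24.4, 22.7 and 8.40 TPM in wild type libraries 1 to 3, without overlap and with an adjusted p = 0.030 by limma. acr-16 read 37.3, 0.341 and 54.7 TPM in unc-4 libraries 1 to 3 against 2.16, 1.74 and 0.825 TPM in wild type libraries 1 to 3, with an adjusted p = 0.091 by limma. Of the markers of other cells, unc-30 of GABA neurons (1 of 5) was listed, at 80.7, 51.6 and 134 TPM in unc-4 against 11, 6.04 and 13.2 TPM in wild type libraries 1 to 3. None of body wall muscle (0 of 5), pharynx (0 of 4), intestine (0 of 4), hypodermis (0 of 4), germline (0 of 3), ciliated neurons (0 of 4) or glutamate neurons (0 of 1) was listed, and none of the 8 VA and cholinergic markers.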

How the data were processed

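The authors deposited 2 tables with a TPM value per library and per group mean. Their fold change, read as a linear ratio, and their FDR p-value stand beside it, per the file headers. WBcel235 is named in the submitters' processing notes; the aligner, counting and test are not given in the sources used here. Only genes with an FDR of at most 0.05 and a fold above 1 were present. In the unc-4 table, 2 rows without a gene name were left out. Columns were matched to libraries by the library number in their names, and wild type VA values were identical in both tables.

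Values were taken as log2(TPM + 1), which understates the change of low genes. Genes whose mean reached 1 TPM in 1 or both groups were fitted in limma 3.58.1 (R 4.3.3), its trend option on. Its p-values were adjusted by Benjamini-Hochberg over the fitted genes of each table, all selected by the authors, and not over the genome. Permutation tests used scipy 1.17.1. Members and lists were chosen with earlier results of these data known. Named were all lgc genes, up to 4 genes per list by ratio of means, the 5 genes nearest in pattern, and unc-4 and ceh-12.

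Alternatives were pseudocounts of 0.1 and 5, no minimum or one of 5 TPM, no trend, a replicate block, rescaling without heat shock genes, and each library left out.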

Additional observations from a re-analysis of the deposited data

How the results depend on the processing

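All lgc genes kept their direction under every alternative tried. In the whole-worm comparison limma passed 14 (with a minimum of 5 TPM, which removes lgc-42) to 16 of the 17 genes. lgc-28 passed without VA replicate 1 (adjusted p = 0.030), without whole-worm replicate 3 (0.035), after rescaling (0.045) and under the replicate block (0.016). lgc-42 did not pass under the block (0.077). In the unc-4 comparison the number passing ran from 0 to 2 of 2 genes with 1 library left out, with 0, 0, 0, 1 and 2 genes at an unadjusted p under 0.05 without unc-4 replicate 1, unc-4 replicate 3 and wild type replicates 1, 2 and 3. Of the 214 genes of the table, 0 to 211 passed, against 173 with all libraries; the count of 0 genes came without unc-4 replicate 3, where 101 had an unadjusted p under 0.05. With 1 library left out, 1899 to 2247 genes of the whole-worm table passed.

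Samples with the same replicate number were not shown to be paired. Correlations of their deviations were 0.019, 0.18 and 0.056 for unc-4 and wild type VA replicates 1 to 3, and not every library correlated best with its own number. With the replicate block 185 genes of the unc-4 table passed, both lgc genes among them (adjusted p = 0.011 for lgc-28 and 0.017 for lgc-23), and 1589 of the whole-worm table, 15 of 17 lgc genes among them, over the replicate numbers 2 and 3 that the groups share. Depth is unknown from TPM, so low values such as those of lgc-42 have no counting error here.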
